A study of Mus musculus with 2 samples.

Results

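Toll-like receptors and the proteins that work with them were followed through 9 genes of the 27998 in the deposited matrices, each found by its gene symbol. They are 6 receptors (Tlr1, Tlr2, Tlr3, Tlr4, Tlr7 and Tlr13), the accessory proteins Cd14 and Ly86, and 1 adaptor, Myd88. Every one of the 9 had counts in both libraries. The cells came from mouse spinal cord and were sorted on yellow fluorescent protein made from the Cx3cr1 locus, which is active in microglia and other mononuclear phagocytes. The tissue of both groups was digested with collagenase at 2 mg per ml for 30 min at 37 C, and the part of this step in the levels was not tested. Mice of both groups were C57BL/6J carrying Cx3cr1-CreERT2-YFP and floxed Runx1, so the group labelled wild type also held the Cre driver and the floxed allele. That group received vehicle, and the group labelled Runx1 knock-out received tamoxifen at 1 mg per day in 5 daily injections, with cells taken 4 weeks after the first. Each group was 1 10x Chromium 3′ library. The labels used here give neither the age of the mice nor how many animals went into a library. Tamoxifen and loss of Runx1 cannot be told apart in this design, and no difference between the libraries has a replicate check, so no test over samples was possible.

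Toll-like receptors recognise conserved microbial molecules. Those at the cell surface bind lipids and proteins of microbial envelopes, and those in endosomes bind nucleic acids. All of them except Tlr3 signal through the adaptor Myd88, which passes the signal to IRAK kinases, TRAF6 and NF-kB; Tlr3 uses the adaptor encoded by Ticam1, and Tlr4 uses both routes. Microglia are tissue macrophages of the brain and spinal cord, and use these receptors to respond to infection and to molecules released from damaged tissue.

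The libraries held 4582 and 2604 barcodes, with 37446978 and 13075939 UMIs (unique molecular identifiers, which count molecules), in the order wild type, then labelled knock-out, that is kept throughout. Cells of a class and library were summed and expressed as counts per 1000000 UMIs of the same cells (CPM), with exact 95% Poisson intervals; log2 ratios set the second of these over the first, with exact 95% binomial intervals. All these intervals cover counting error only. Microglia-like cells numbered 2176 and 1355, with median depths of 5505 and 3464 UMIs, and all 12 microglia markers reached 20 CPM in both libraries. Endothelial-like cells, although Cx3cr1 is not an endothelial gene, numbered 1622 and 833. The microglia-like cells also carried RNA of 9 endothelial markers, at a summed 5617 and 1853 CPM, and the clusters that held them were almost entirely of 1 library each (2176 cells of cluster 0 and 1352 cells of cluster 2). The libraries shared 9 barcodes, and leaving those cells out changed no count of members. Runx1 itself was not lower in the microglia-like cells labelled knock-out: it stood at 92.9 and 181 CPM, a log2 ratio of 0.96 (0.85 to 1.07). A 3′ tag does not read a deleted exon elsewhere in the gene, so this value does not check the label, and each direction below refers to the library as labelled.

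Bases upstream of 3 members are shown, chosen by the levels of these members, and no result rests on the bases. Ly86 is the member whose level differed most between the libraries. Tlr2 is one of 2 whose level was higher in Il1b- and Tnf-led cells in both libraries with an interval above equality. Tlr13 is the endosomal receptor with the largest ratio. Promoter windows of 300 bases (250 before and 50 from the RefSeq start, GRCm38.p6) were found for 6 of the 9 members. Each stretch below is the part of that window before the outermost start in either RefSeq or GENCODE, on the gene's own strand, 5′ to 3′, with motif matches in capitals.
Ly86, chr13:37345095-37345207, plus strand: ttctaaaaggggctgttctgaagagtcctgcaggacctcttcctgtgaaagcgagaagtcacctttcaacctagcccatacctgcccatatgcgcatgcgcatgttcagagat
Tlr2, chr3:83841768-83841858, minus strand: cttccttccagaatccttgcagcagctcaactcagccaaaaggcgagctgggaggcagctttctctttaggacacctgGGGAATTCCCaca
Tlr13, chrX:106143025-106143203, plus strand: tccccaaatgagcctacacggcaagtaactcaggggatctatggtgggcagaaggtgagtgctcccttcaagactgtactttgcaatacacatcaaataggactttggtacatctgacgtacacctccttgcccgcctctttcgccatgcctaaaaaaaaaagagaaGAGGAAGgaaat
The capitals in Tlr2 mark a match to the NF-kB letters GGGA, any 4 bases, then CC, and those in Tlr13 a match to the PU.1 letters GAGGAAG; both strands were searched. In the full windows, the NF-kB letters were found for Tlr2 and Tlr3, and in 20.7% of all 32851 promoter windows. Tlr2 had 2 matches, the nearer starting 8 bases before the RefSeq start. The matches of Tlr3 started 211, 23 and 9 bases before it. The PU.1 letters were found for Tlr1 and Tlr13, and in 13.6% of all windows. The RUNX letters TGTGGT were found in none of the 7 member windows, Ly86 included, and in 16.8% of all windows. A match is a description of the letters, and the data measure no binding. Any link between a match and a level was not tested.

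In microglia-like cells, Ly86 was the 1 member that differed by more than 1.5-fold between the libraries, with the higher level in the knock-out-labelled library. Of the 6 members that reached 20 CPM in at least 1 library, 1 was higher by more than 1.5-fold, 0 were lower by that much and 5 lay within it. Among all 5758 genes at that level, 8.11% were higher and 12.4% were lower by more than 1.5-fold. The median log2 ratio of those 6 members was 0.32, beside a median of -0.037 over all those genes. Tlr13 passed 20 CPM only through the knock-out-labelled library, and over all 9 members, at a minimum of 5 CPM, the median was 0.18. Genes enriched in microglia-like cells, at 2 times the endothelial-like and pericyte or smooth muscle-like level or more in either library, had a median of 0.32 as well: 78.4% of these 829 genes were above 0 and 28.4% were higher by more than 1.5-fold. That set holds 5 of the members, and since enrichment in either library was enough, it is not independent of the ratio. Scaling to the 12 summed microglia markers, an alternative chosen after seeing the data, takes the same 0.28 from every log2 ratio. It moved the median of all genes to -0.31 and that of the measured members to 0.043, and then 3.11% of genes were higher and 26.5% lower.

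**Figure D1:**
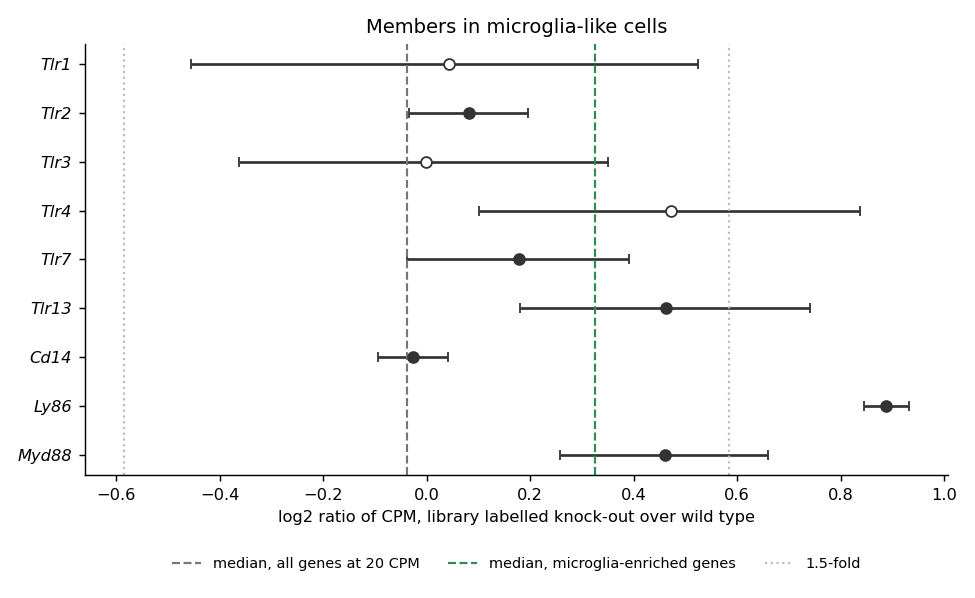
Log2 ratio of CPM in microglia-like cells for each of the 9 genes (knock-out label over wild type, 1 library each), with 95% intervals for counting error as bars. Open points are genes under 20 CPM in both libraries; dashed lines are the medians of all measured and of microglia-enriched genes, dotted lines 1.5-fold. Ly86, at 0.89, is the only point beyond the 1.5-fold line.

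Among the surface receptors, Tlr2, which pairs with Tlr1 or Tlr6 to sense lipoproteins, had 133 CPM (127 to 139) with the wild-type label and 140 CPM (131 to 150) with the knock-out label. Its log2 ratio was 0.081 (-0.035 to 0.20), an interval that holds equality. Tlr1 had 8.05 and 8.30 CPM, from 126 and 51 UMIs, and a log2 ratio of 0.044 (-0.45 to 0.52). Tlr4, the receptor for lipopolysaccharide, had 11.4 CPM (9.77 to 13.2) and 15.8 CPM (12.8 to 19.3), from 178 and 97 UMIs. Its log2 ratio of 0.47 had an interval of 0.10 to 0.84, which leaves out equality but reaches from near 0 to beyond 1.5-fold. Tlr2 lies on chromosome 3 (83836272 to 83841767, minus strand, GRCm38), Tlr1 on chromosome 5 and Tlr4 on chromosome 4. Tlr1 and Tlr4 stayed under 20 CPM in both libraries and were not counted among the measured members.

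Among the endosomal receptors, Tlr7, a sensor of single-stranded RNA, had 37.4 CPM (34.4 to 40.6) and 42.3 CPM (37.3 to 47.8), a log2 ratio of 0.18 (-0.038 to 0.39). The interval holds equality. With every cell thinned to 1500 UMIs, the ratio was -0.22, 0.12 and 0.32 in 3 random draws. Tlr13, which recognises bacterial ribosomal RNA and has no human counterpart, had 19.5 CPM (17.4 to 21.8) and 26.9 CPM (22.9 to 31.3). Its intervals in the libraries did not overlap, and the log2 ratio was 0.46 (0.18 to 0.74). In the 3 draws of thinned cells it was 0.84, 0.55 and 0.47, past 1.5-fold in 1 of them. Tlr3, the double-stranded RNA sensor, had 15.2 CPM (13.3 to 17.2) and 15.1 CPM (12.2 to 18.6), and its log2 ratio had an interval of -0.36 to 0.35. Tlr7 and Tlr13 (106143204 to 106160493, plus strand, GRCm38) both lie on the X chromosome. An antisense transcript, Gm45542, overlaps Tlr3 (chromosome 8, 45395665 to 45411080, minus strand, GRCm38), and nothing in the labels says whether the counting used strand.

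Of the accessory proteins, Cd14, which hands lipopolysaccharide and lipoproteins to Tlr4 and Tlr2, had 404 CPM (394 to 414) and 397 CPM (381 to 413). The intervals overlapped, and the log2 ratio was -0.026 (-0.094 to 0.042). That narrow interval covers counting error only. Over 15 alternatives to the processing, the Cd14 ratio ranged from -0.59 to 0.086, and it was -0.41 with an upper estimate of free RNA taken out. Ly86, also called MD-1, is the secreted partner of the Toll-like receptor relative Cd180 (RP105). It lies on chromosome 13 from 37345208 to 37419036 on the plus strand (GRCm38). Ly86 had 647 CPM (634 to 659) with the wild-type label and 1197 CPM (1169 to 1224) with the knock-out label, from 10117 and 7351 UMIs. The intervals lay far apart, the log2 ratio was 0.89 (0.84 to 0.93), a 1.85-fold difference, and Ly86 stood at percentile 97.3 of all measured genes. After an upper estimate of free RNA was taken out, with 53.7% and 21.4% of the RNA of microglia-like cells assigned to free RNA, the Ly86 ratio was 0.56, which no longer passed 1.5-fold; the part of free RNA in the difference was not tested further. Cd180, the binding partner of Ly86, had 101 and 115 CPM and a log2 ratio of 0.19 (0.061 to 0.32).

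The adaptor Myd88 had 37.4 CPM (34.4 to 40.6) and 51.4 CPM (45.9 to 57.4), from 585 and 316 UMIs. The intervals did not overlap, and the log2 ratio was 0.46 (0.26 to 0.66). Myd88 (chromosome 9, 119335934 to 119341411, minus strand) overlaps Slc22a14 on its own strand and Acaa1a on the other.

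The same difference in Ly86 was seen cell by cell. With every microglia-like cell thinned to 1500 UMIs, so that depth was equal, 60.3% (58.2 to 62.3, exact Clopper-Pearson interval) and 81.0% (78.8 to 83.1) of cells held a Ly86 UMI; endothelial-like cells, which should lack the gene, held one in 22.3% and 13.3%, at median depths before thinning of 5939.5 and 3586 UMIs. Thinned cells held a mean of 0.98 and 1.79 Ly86 UMIs, and medians of 1 and 2. Cells without a Ly86 UMI made up 39.8% and 19.0%, and the share with 3 was 6.66% and 14.9%. The whole distribution of Ly86 was shifted: the shares of cells at 0 and at 1 were lower, and every share from 2 UMIs up was higher, in the knock-out-labelled library. Cd14 was found in 41.2% (39.1 to 43.3) and 38.1% (35.5 to 40.7) of thinned microglia-like cells, beside 12.7% and 7.20% of endothelial-like cells. Tlr2 was found in 15.4% (14.0 to 17.0) and 17.7% (15.7 to 19.9), beside 5.12% and 1.80%. For both, the shares in the libraries had overlapping intervals.

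**Figure D2:**
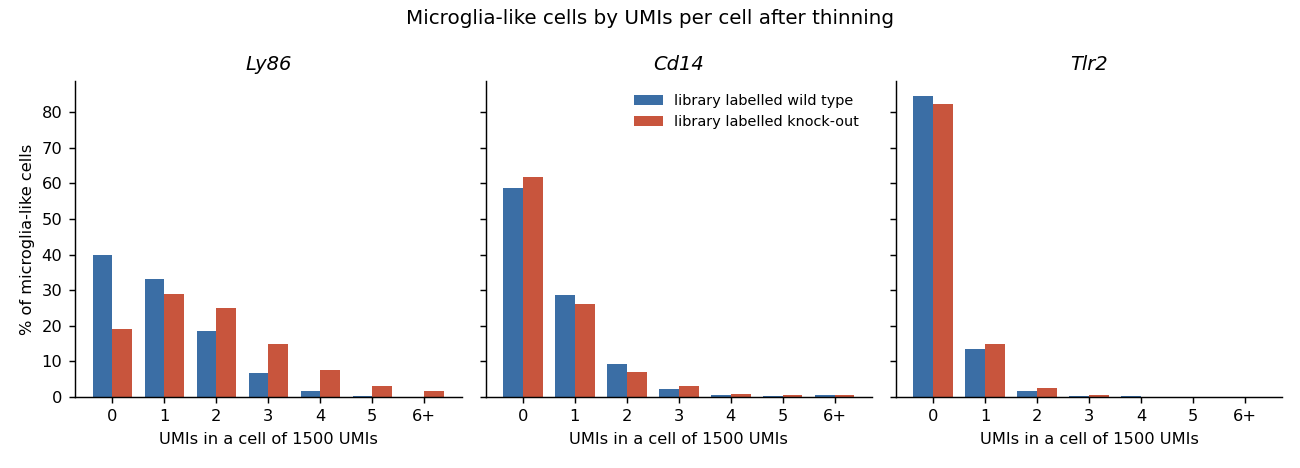
Share of microglia-like cells (2176 in the library labelled wild type, 1355 in that labelled knock-out) by the number of Ly86, Cd14 or Tlr2 UMIs, after each cell was thinned to 1500 UMIs. The Ly86 bars are shifted to higher numbers with the knock-out label, where 19.0% of cells have none against 39.8%, while the Cd14 and Tlr2 bars nearly coincide.

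The other members were sparse at this depth. Myd88 was found in 6.25% and 7.82% of thinned microglia-like cells and in 3.64% and 5.04% of endothelial-like cells. Tlr7 was found in 5.70% and 6.35%, beside 1.36% and 0.36% of endothelial-like cells, and Tlr13 in 2.57% and 3.84%, beside 1.48% and 0.48%. Tlr4 was found in 1.61% and 2.58% and Tlr1 in 0.97% and 1.18%, beside at most 0.92% of endothelial-like cells. Tlr3 was found in 2.39% and 1.99%, at the level of endothelial-like cells (2.16% and 2.40%), so its share in microglia-like cells was not above that class. Taking all 9 genes at once, 14.98% and 8.34% of thinned microglia-like cells had no member UMI, beside 58.1% and 73.1% of endothelial-like cells, and the median microglia-like cell had UMIs of 1 and 2 of the 9 genes. Before thinning, Ly86 alone gave 49.3% and 63.2% of the member UMIs of microglia-like cells, and Cd14 gave 30.8% and 20.9%. The tally over all 9 genes therefore weighs Ly86 and Cd14 most.

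Across cell classes, 8 of the 9 members were highest in microglia-like cells in both libraries, among the 5 classes with at least 50 cells in each; in 1 random draw of thinned counts it was 7 of 9 in the wild-type library. Tlr3 was the exception, with its highest level in cluster 4, at 16.4 and 19.2 CPM; all neighbours in its order had overlapping intervals. Cluster 4 held 452 and 139 cells, carried markers of both microglia and endothelium, had median depths of 13048.5 and 6806 UMIs and was left unnamed. For Tlr2, Tlr7, Cd14 and Ly86 the microglia-like level lay above that of the next class, cluster 4, without overlap of the intervals in either library. Ly86 stepped down from 647 and 1197 CPM in microglia-like cells to 403 and 593 in cluster 4, 230 and 174 in pericyte or smooth muscle-like cells and 176 and 94.6 in endothelial-like cells. For Tlr1, Tlr4, Tlr13 and Myd88 the microglia-like level overlapped with that of the next class in both libraries. Border-associated macrophage-like cells, of which the wild-type library held 19, had 475 CPM of Ly86 (387 to 577), 235 of Cd14 (174 to 310) and 70.5 of Tlr2 (39.4 to 116). Tlr3, Tlr7 and Tlr13 had 23.5, 42.3 and 28.2 CPM there, above the microglia-like values but on 5, 9 and 6 UMIs. Tlr1, Tlr4 and Myd88 were lower there, but on 1, 2 and 7 UMIs and with intervals that held the microglia-like values. Unnamed cluster 8 (23 and 17 cells) carried microglia markers at a summed 18590 and 23530 CPM. Natural killer or T cell markers summed to 949 and 547 CPM there, and 9 cycling markers counted. Cluster 8 had 225 CPM of Tlr2 (169 to 293) with the wild-type label, above the microglia-like interval. It had 204 (128 to 309) with the knock-out label, where the intervals overlapped. Its wild-type Ly86 (657 CPM, 559 to 768) and Cd14 (320 CPM, 253 to 400) overlapped microglia-like cells.

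**Figure D3:**
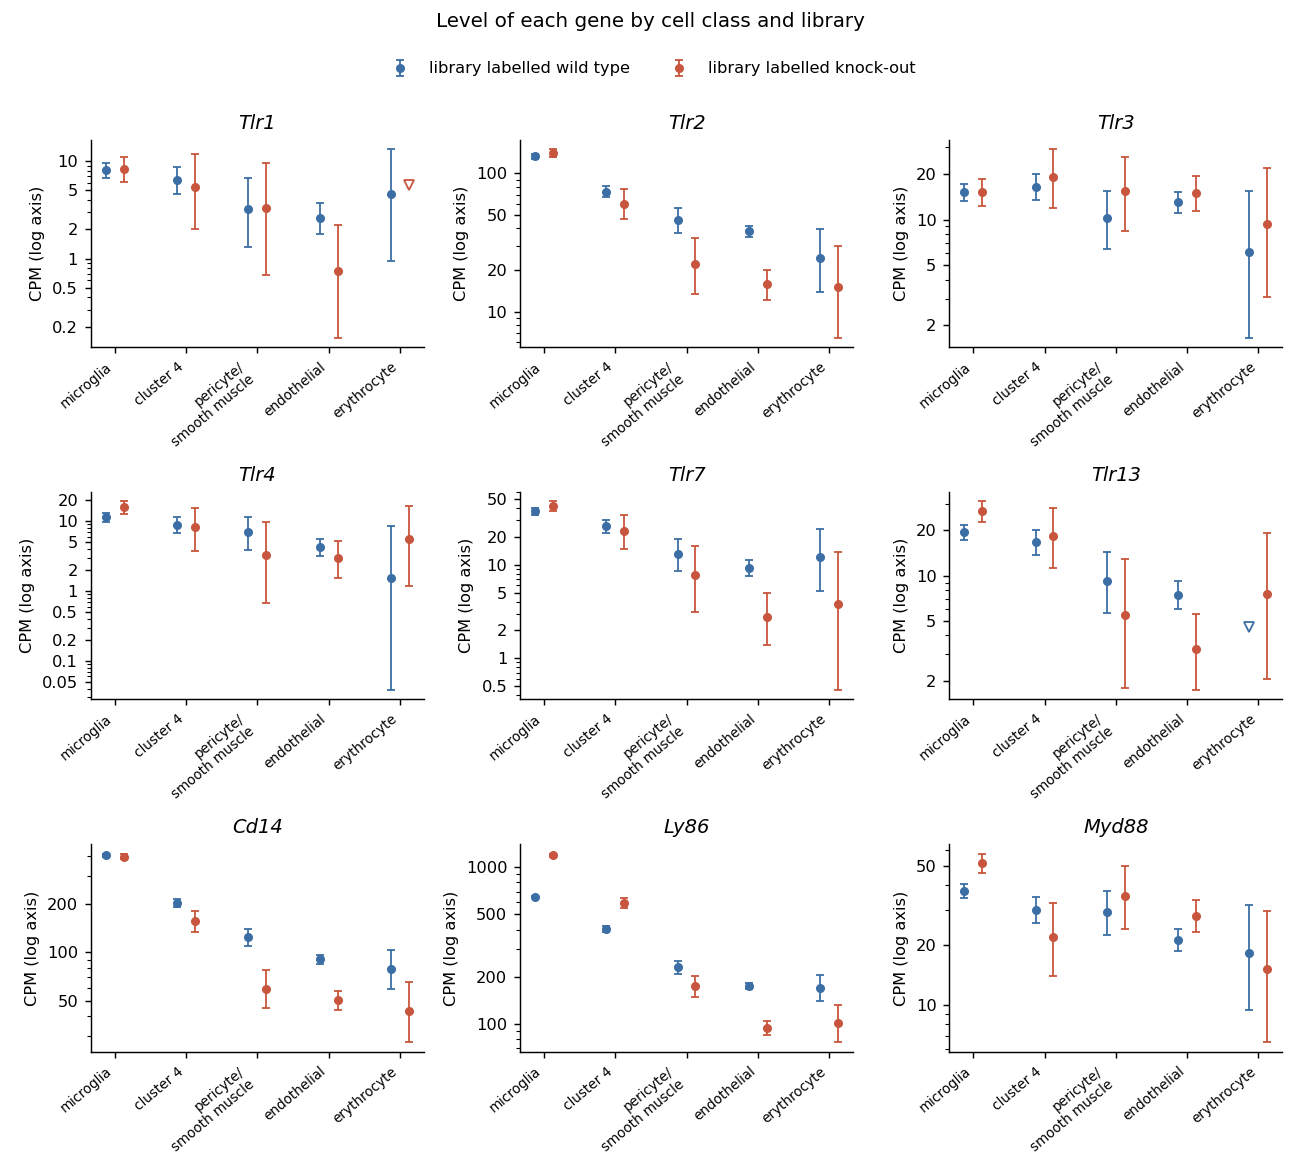
CPM (log axis, different range in each panel) of each gene in the 5 classes with at least 50 cells in both libraries; bars are exact 95% Poisson intervals, and open triangles mark classes with no UMI, drawn at 3 counts. Cd14, Ly86, Tlr2 and Tlr7 step down from microglia-like cells to the other classes, whereas Tlr3 does not.

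The endothelial-like level of most members followed that of microglia markers. The median over the 12 microglia markers was 31.9% of the microglia-like level with the wild-type label and 11.4% with the knock-out label. Leaving out Sparc, which endothelial cells make themselves, the markers ranged from 17.5% (Gpr34) to 41.9% (Tmem119) and from 6.99% to 16.2%. Ly86 had 27.2% and 7.91%, Cd14 22.4% and 12.6%, Tlr2 28.9% and 11.2%, and Tlr7 24.9% and 6.51%, all within that range or, for Tlr7 with the knock-out label, just under it. Tlr3, at 86.1% and 99.2%, and Myd88, at 56.6% and 54.5%, lay above every marker other than Sparc. Tlr3 lay above Sparc too with the knock-out label, where Sparc had 69.6%. Tlr4, at 37.2% and 19.0%, lay above that range in 1 library, on 12 endothelial-like UMIs. The members differed between the libraries in endothelial-like cells in another way than in microglia-like cells. Ly86 was lower there with the knock-out label, at a log2 ratio of -0.89 (-1.06 to -0.73), as were Cd14, at -0.85 (-1.08 to -0.63), and Tlr2, at -1.28 (-1.68 to -0.90). Myd88 was higher there too, at 0.41 (0.071 to 0.73). Over all cells, Ly86 had a log2 ratio of 0.68 (0.64 to 0.72).

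**Figure D4:**
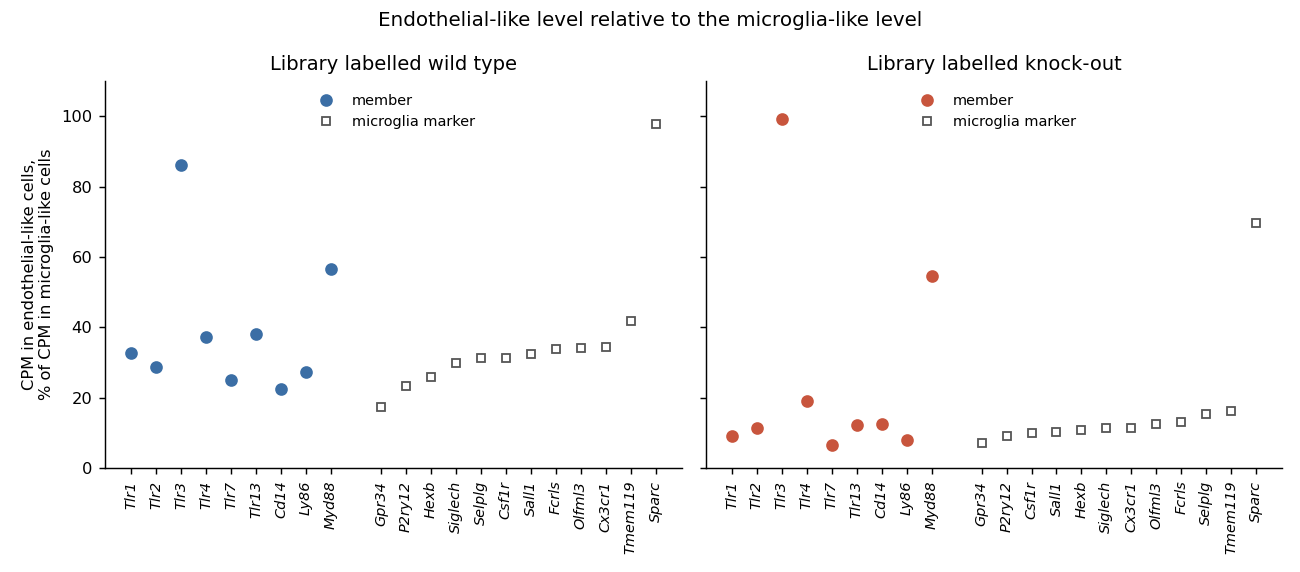
CPM in endothelial-like cells as a percentage of CPM in microglia-like cells, for the 9 members (filled) and the 12 microglia markers (open), in each library. Tlr3 and Myd88 lie above all markers other than Sparc in both libraries, and Tlr3 lies above Sparc too with the knock-out label. The other 7 members lie between 22.4% and 38.2% with the wild-type label and between 6.51% and 19.0% with the knock-out label.

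Among clusters rich in microglia markers, Tlr2 and Cd14 were higher, and Ly86 lower, in cells led by Il1b and Tnf. When each library was clustered alone, without the members among the clustering genes, it held a cluster led by genes such as Gpr34 and P2ry12 (1261 and 586 cells) and another whose leading genes included Il1b, Tnf and Cxcl2 (924 and 771 cells). Of these 4 clusters, 3 were microglia-like. The cluster of 771 cells with the knock-out label was left unnamed: 11 of 12 microglia markers counted there, but none was among its top 10 genes and the neutrophil marker S100a8 was. The 10 neutrophil markers summed to 323 CPM there and 151 in the other cluster with that label, and to 275 and 287 CPM in the same order for wild type; their part in the ratios was not tested. These values describe clusters and are no test; the Il1b- and Tnf-led cells were also deeper, with medians of 8434 against 4425 UMIs and 4030 against 2980.5. Tlr2 had 152 CPM in the Il1b- and Tnf-led cluster and 106 in the other for wild type, and 161 and 104 for the knock-out label. Those are log2 ratios of 0.52 (0.39 to 0.66) and 0.64 (0.42 to 0.86). Cd14 had 448 and 342 CPM for wild type, and 468 and 267 for the knock-out label. Its log2 ratios were 0.39 (0.31 to 0.46) and 0.81 (0.67 to 0.94), with intervals that did not overlap between the libraries. Ly86 had the opposite sign, with 622 against 680 CPM and 1125 against 1328, log2 ratios of -0.13 (-0.18 to -0.071) and -0.24 (-0.31 to -0.17). The 12 microglia markers were also lower in the Il1b- and Tnf-led cells. They summed to 20500 against 24480 CPM for wild type and 24080 against 31840 CPM for the knock-out label. Whether Ly86 differed apart from these markers was not tested. Both kinds of cluster had more Ly86 with the knock-out label. For Tlr1, Tlr3, Tlr4, Tlr7, Tlr13 and Myd88 the intervals held equality in both libraries. Tlr2, Cd14 and Ly86 are the members with the most UMIs. The share of all genes that differed between these clusters was not worked out. The values therefore cannot say whether these members differed more than other genes with many UMIs. The endothelial markers stood at 5544 and 5695 CPM in the wild-type clusters and 1790 and 1836 CPM in those with the knock-out label.

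**Figure D5:**
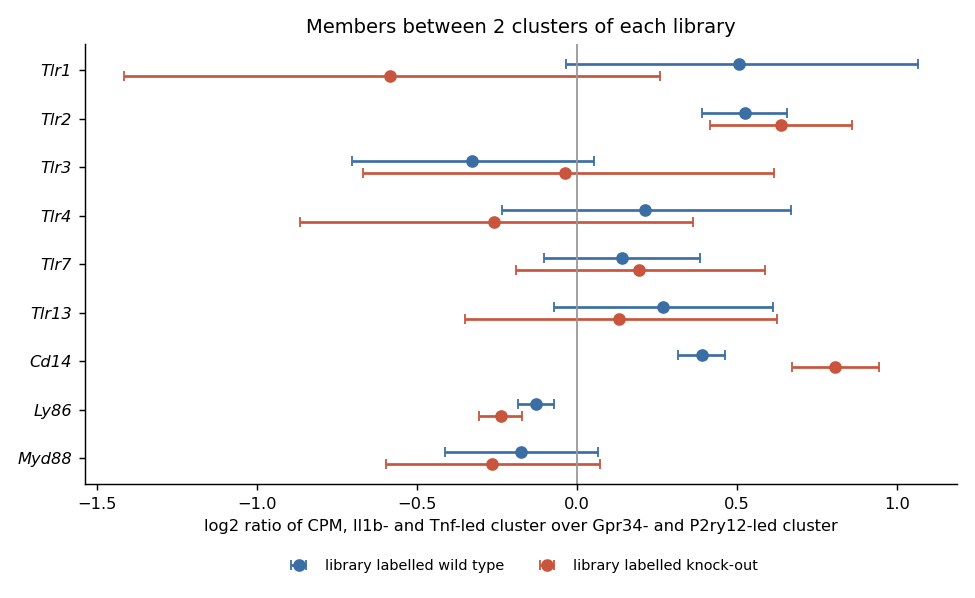
Log2 ratio of CPM between the Il1b- and Tnf-led and the Gpr34- and P2ry12-led cluster of each library (the Il1b- and Tnf-led cluster with the knock-out label is unnamed), with 95% intervals for counting error. Tlr2 and Cd14 lie above 0 and Ly86 below 0 in both libraries; the other intervals cross 0.

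Of 56 further genes of the pathway in 6 lists, 25 reached 20 CPM in microglia-like cells: 3 were higher and 2 lower by more than 1.5-fold, beside 8.11% and 12.4% of all genes, and the median log2 ratio was 0.17. Of the 25, 17 lay above 0, beside 46.6% of all genes. None of the 6 other Toll-like receptors reached that level. Tlr12, at 6.52 and 7.98 CPM, and Tlr6, at 5.24 and 6.51, were the highest of them. Tlr8 had 1 UMI and then 0, in cells where 3 UMIs would be 0.488 CPM. None of the 5 other adaptors reached 20 CPM either, with Ticam2 at 16.2 and 16.3 CPM and Tirap at 13.9 and 12.5. Of the 9 coreceptors and chaperones, 5 were measured, all with ratios above 0 and within 1.5-fold. Among these, Unc93b1, which carries Toll-like receptors to endosomes, had 560 and 728 CPM and a log2 ratio of 0.38 (0.32 to 0.43), and Ly96, the Tlr4 partner MD-2, had 49.9 and 57.1 CPM and a ratio of 0.19 (0.0091 to 0.38).

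Downstream of Myd88, all 7 measured genes of the IRAK, TRAF and TAK1 list lay within 1.5-fold, 6 of them above 0. The kinase Irak2 had a log2 ratio of 0.47 (0.24 to 0.70), the ubiquitin ligase Peli2 0.39 (0.070 to 0.70) and the kinase Irak1 0.36 (0.14 to 0.58). In the IKK and IRF list, with 8 of 11 measured, 2 lay above 0 and 6 below, with a median of -0.17. Nfkb1, which encodes the NF-kB subunit p105/p50, had 79.6 and 162 CPM and a ratio of 1.03 (0.90 to 1.15). Irf7, an interferon regulatory factor, had 45.3 and 27.4 CPM and a ratio of -0.73 (-0.98 to -0.48), and Irf3 had -0.51 (-0.72 to -0.31). Of the inhibitors, with 5 of 11 measured, 4 lay above 0 and 1 below. Tnfaip3, the deubiquitinase A20, had 91.2 and 280 CPM and a ratio of 1.62 (1.52 to 1.72). Nfkbia, the NF-kB inhibitor that NF-kB itself induces, had 2859 and 4551 CPM and a ratio of 0.67 (0.65 to 0.69). Sigirr, an inhibitory receptor of the family, had 37.0 and 13.5 CPM and a ratio of -1.45 (-1.80 to -1.12). Sigirr and Irf7 were higher in endothelial-like cells (97.5 and 107 CPM, and 95.1 and 139 CPM) than in microglia-like cells, and the endothelial marker RNA in microglia-like cells was lower with the knock-out label (log2 ratio -1.60). The part of that RNA in their ratios was not tested.

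The genes most like each member over the 10 class and library sums with at least 50 cells were ranked by Pearson's r of log2(CPM + 1) among 7506 genes, as a description only, because the sums share libraries and the class differences. Csf1r, Plek and Daglb were most like Ly86 (0.997 to 0.996). Kcnk13, Tlr2 and Arhgap22 were most like Cd14 (0.996 to 0.992), and Arhgap22, Hcls1 and Cd14 most like Tlr2 (0.996 to 0.994), so Tlr2 and Cd14 were each among the 3 genes closest to the other. Rgs10, Inpp5d and Cd84 were most like Tlr7 (0.995 to 0.993). For Tlr3 and Myd88 the nearest genes, Zbtb1 and Clk4, had 0.965 and 0.961.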

How the data were processed

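Spinal cord cells sorted on yellow fluorescent protein were made into 1 10x Chromium 3′ library per group. The deposited values are raw UMI counts per gene and barcode; the gene and barcode lists deposited beside them hold other, non-numeric content. Per the submitters' processing notes, which give no roles, STAR, Cell Ranger 2.0.1, Seurat 2.1.0, GRCm38.p5 and mm10 are named. The members and all gene lists were chosen with earlier results of these data known.

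Barcodes with 300 genes or more and up to 10% mitochondrial UMIs were kept (0 and 8 removed); doublets were removed only in an alternative (Scrublet, scanpy 1.11.5). Both libraries were clustered together on 2000 variable genes (30 principal components, 15 neighbours, Leiden resolution 0.5, leidenalg 0.10.2), without batch correction. Members, pathway lists, Runx1 and the sex-linked genes Xist, Tsix, Ddx3y, Eif2s3y, Kdm5d and Uty were left out of the clustering. Names came from 17 marker lists. A marker counted at 20 CPM if nearer its highest than its lowest cluster. A name needed 3 counted markers and 50% of its list, fewer than 6 counted cycling markers, and no other list with more markers among the top 10 genes. With fewer than 2 of its own markers in the top 10, the share of every other list had to be under 60% of its own. Clusters of low depth with none there stayed unnamed. This scoring was chosen with the clusters in view, and the names are not the submitters'. Named genes are the members, Runx1, up to 3 per pathway list with the largest ratio at 20 CPM, and the 3 genes most like each member; other genes were named after their values were seen. GENCODE M21 (GRCm38) held 27645 of 27998 identifiers. Intervals of the ratios were tested only on simulated Poisson counts without variation between cells, animals or libraries, so that test cannot speak to such variation. Alternatives changed scaling, depth, cell filter, doublets, class, free RNA, minimum level and fold.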

Additional observations from a re-analysis of the deposited data

How the results depend on the processing

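The number of members higher by more than 1.5-fold, 1, was the same under 14 of 19 alternatives. It was 2 with every cell thinned to 1500 UMIs (Tlr13 joined, at 0.84), beside 10.2% of all genes; that is 1 random draw, and the count was 1 in both other draws. It was 2 with each library clustered alone (Myd88 joined, at 0.62), beside 9.57% of all genes, 0 with the estimated free RNA taken out, beside 13.9%, 0 at a limit of 2-fold, beside 1.79%, and 3 at a limit below 1.5-fold, beside 19.4%. The number lower was 0 except with each library clustered alone, where it was 1 (Cd14, at -0.59), beside 11.9% of all genes; with the knock-out label, only the 586 cells of the Gpr34- and P2ry12-led cluster then counted as microglia-like. With the unnamed Il1b- and Tnf-led cluster of that library put back, an alternative chosen after seeing the data, the counts were 1 and 0 again.

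The members' median log2 ratio of 0.32 was -0.056 over all cells, 0.036 with free RNA taken out and 0.043 with the microglia-marker scaling. The Ly86 ratio of 0.89 was above 0 in all 15 alternatives: it was 0.84 thinned, 1.04 with each library clustered alone, 0.68 over all cells, 0.56 with free RNA taken out and 0.61 with the microglia-marker scaling. Tlr4, Tlr13 and Myd88 were also above 0 in all 15, whereas Tlr2 and Tlr7 were below 0 in 4 and Cd14 above 0 in 2. The ratios of Tlr4, Tlr13 and Myd88 were smaller in some, at 0.21, 0.22 and 0.26 with free RNA taken out. With the microglia-marker scaling they were 0.20, 0.19 and 0.18. In the 3 random draws of thinned cells, Tlr4 had 0.59, 0.72 and 0.076. The free RNA estimate is an upper one, since it treats every endothelial marker UMI there as free RNA. With 1 library per group no replicate could be left out, and no paired analysis was possible because each group has a single library. Depth limits Tlr1, Tlr3 and Tlr4, whose intervals were the widest of the 9.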
